A study of Mus musculus with 55 samples.

Results

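RNA of mature mouse neurons kept for 180 min in bicuculline was compared with that of untreated neurons with the same age label, 21 days in vitro (21DIV). The authors used this label for a range of days around it. The comparison took the 2 samples labelled with bicuculline for 180 min and the 3 basal samples of the stimuli experiment, 5 of the 55 samples of the series and of the 27 in that experiment. The cultures were forebrain neurons (cortex and hippocampus) of CD1 mouse embryos of mixed sex, and no tetrodotoxin was applied to any of these 5. Bicuculline (50 μM) stayed in the growth medium until collection, whereas the basal samples received no drug. The basal samples are labelled 0 min and no untreated sample is labelled 180 min, so time since handling cannot be told apart from the drug. Set beside them were samples with the same age label kept in bicuculline for 15 or 45 min (n = 2 each) or in 55 mM KCl for 180 min (n = 2). The maturation experiment, deposited as a separate table, gave 2 samples held for 180 min in 50 μM bicuculline with 2.5 mM 4-aminopyridine, a potassium channel blocker, and 3 basal samples, all labelled 23 days in vitro.

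Bicuculline blocks GABA-A receptors, the chloride channels through which inhibitory neurons silence their targets, so that excitatory transmission in a connected culture drives bursts of firing. Calcium then enters through NMDA receptors and voltage-gated channels and activates kinases that act on factors already present, among them CREB, SRF and MEF2. Early response genes such as Fos and Npas4 are transcribed first, and the proteins they encode take part in switching on a later set of genes. KCl depolarizes the membrane directly, without the need for synapses.

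Counts on genes ranged from 2613663 to 3909442 in the 5 samples and were 1277227 and 1796345 in the KCl samples. Levels are given as normalized CPM (the share of a library's counts, scaled up to a common total). A gene counted as differentially expressed (DEG) where its level moved 1.5-fold or more and edgeR's quasi-likelihood test, adjusted by Benjamini-Hochberg, gave a p under 0.05. Errors of log2 fold changes are standard errors. The labels do not say whether replicates were separate culture preparations, so p-values measure a spread between samples that may be technical. That spread was estimated within the groups of all 27 samples of the stimuli experiment, not from the compared samples alone. The sample descriptions carry a code with the letter A for both bicuculline 180 min samples, both KCl 180 min samples and basal samples 1 and 2, and the letter B for basal sample 5 and all bicuculline samples of 15 and 45 min. In whole cultures, fewer cells of a type and less RNA per cell cannot be told apart. All 12 neuron markers were measured, and their summed level was 9122 to 9951 CPM in basal samples and 10262 and 10675 CPM after bicuculline. All 14 astrocyte markers were also measured (2809 to 3423 CPM in basal, 3412 and 3787 CPM after bicuculline). Only 3 of 12 microglia and 2 of 14 endothelial, mural and meningeal markers passed the filter. The 3 microglia markers summed to 25.5 to 30.5 CPM in basal samples and 33.8 and 34.8 CPM after bicuculline. Of the microglia markers that did not pass, C1qb and Itgam had 0 counts in all 5 samples and Aif1 had 1 to 8. No member of the 6 marker lists was called between bicuculline 180 min and basal by edgeR, its likelihood ratio test or DESeq2. An unadjusted p under 0.05 was found for 8 of 54 tested, against 1082 of all 12026 genes. Neuron markers made up 5 of these 8, and 11 of the 12 neuron markers had a positive log2 value.

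After 180 min of bicuculline the response was almost wholly an increase. Of 12026 genes tested, 92 rose and 7 fell (0.765% and 0.0582%, 0.823% in all). The largest rises were in Fosb, Arc and Npas4, between 8.99-fold and 10.4-fold above basal, followed by Pim1, Egr4, Junb, Atf3, Inhba and Fos. No tested member of the lists of GABA synapse, potassium channel, and sodium and calcium channel genes was called. With 0.823% called over all genes, such short lists would hold few calls in any case. The count was 65 without bicuculline sample 2, 69 without sample 3 and 80 without basal sample 5. The number of falls ranged more widely, from 1 without bicuculline sample 3 and 2 with counts summed over transcripts to 19 with edgeR's likelihood ratio test and 22 in a fit of these 5 samples alone, and in each case the rises were the larger number.

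**Figure D1:**
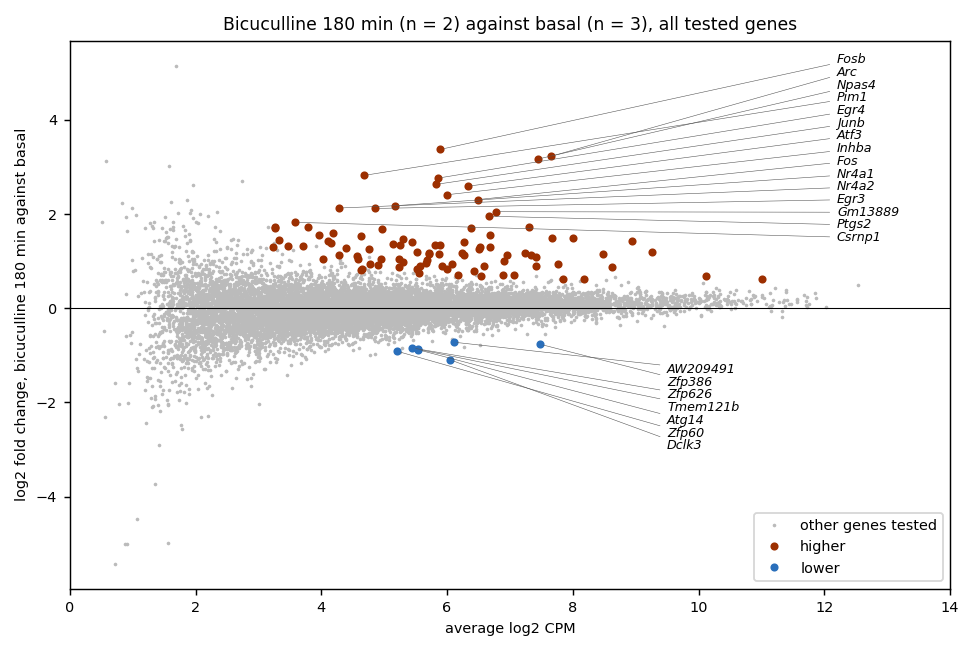
Log2 fold change of bicuculline 180 min (n = 2) against basal (n = 3) for each gene tested, plotted against its average log2 CPM. Red points are the 92 genes that rose, blue points the 7 that fell, and the named genes are the 15 largest rises and all falls.

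The early transcription factors held the largest share of rises, with 17 of 27 tested members (of 30 listed) higher and none lower. Their median log2 fold change was 1.20, against 0.02 over all genes. All gene lists were chosen with earlier results of these data known, so their shares are descriptive and no test of a class. The AP-1 proteins, which bind DNA as dimers of a FOS and a JUN member, included the gene with the largest rise. Fosb (chromosome 7, 19302696 to 19310118, on GRCm38.p6) measured 15.3, 17.8 and 17.9 CPM in basal samples 1, 2 and 5 and 191 and 161 CPM in bicuculline samples 2 and 3. Both treated samples thus lay far above every basal one, with a 10.4-fold rise (log2 3.38 ± 0.21, adjusted p = 5.5e-15, edgeR). Fos (chromosome 12, 85473890 to 85477274) went from 37, 47.7 and 50.4 CPM to 229 and 215 CPM (log2 2.31 ± 0.20, adjusted p = 4.0e-11, edgeR). Junb, the JUN member that rose most, went from 25.4, 23.3 and 29.9 to 165 and 161 CPM. Smaller rises were found for Fosl2 (log2 1.25 ± 0.18) and Jun (log2 0.89 ± 0.14), whereas Fosl1 was not called (log2 0.58 ± 0.50).

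Npas4 encodes a neuronal factor induced by calcium entry and known for its part in forming inhibitory synapses. The gene (chromosome 19, 4984353 to 5003439) measured 80.2, 66.9 and 57.1 CPM in basal samples and 657 and 573 CPM after bicuculline, an 8.99-fold rise (log2 3.17 ± 0.15, adjusted p = 1.4e-18, edgeR). Of the EGR zinc finger factors, Egr4 rose most, from 33.9, 32.2 and 28.4 CPM to 215 and 215 CPM, with treated samples that differed little from each other. Egr3 went from 13, 11.5 and 7.09 to 45.3 and 47.8 CPM, and Egr1 from 68.9, 75.8 and 61.6 to 220.1 and 187 CPM. Egr2 did not pass the filter, with at most 1 count in each of the 5 samples.

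The NR4A genes encode orphan nuclear receptors, and all 3 rose. Nr4a1 went from 16.9, 18.9 and 18.3 CPM to 84.1 and 79.1 CPM and Nr4a2 from 7.91, 8.14 and 7.84 to 30.7 and 39.1 CPM, whereas Nr4a3 had a smaller change (log2 1.17 ± 0.13). Atf3, a stress- and activity-induced factor of the ATF/CREB family, measured 37.6, 59.5 and 46.6 CPM in basal samples and 314 and 261 CPM after bicuculline (log2 2.59 ± 0.18, adjusted p = 1.4e-13, edgeR). Csrnp1 (log2 1.83 ± 0.36, not called without bicuculline sample 3), Ier2 (log2 1.20 ± 0.21), Ier5 (log2 1.06 ± 0.24) and Btg2 (log2 1.03 ± 0.19) also rose. The 10 tested members that were not called included the 6 KLF and MAF factors with log2 values between -0.22 (Klf2) and 1.36 (Klf4), and Srf, Crem and Nab2.

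**Figure D2:**
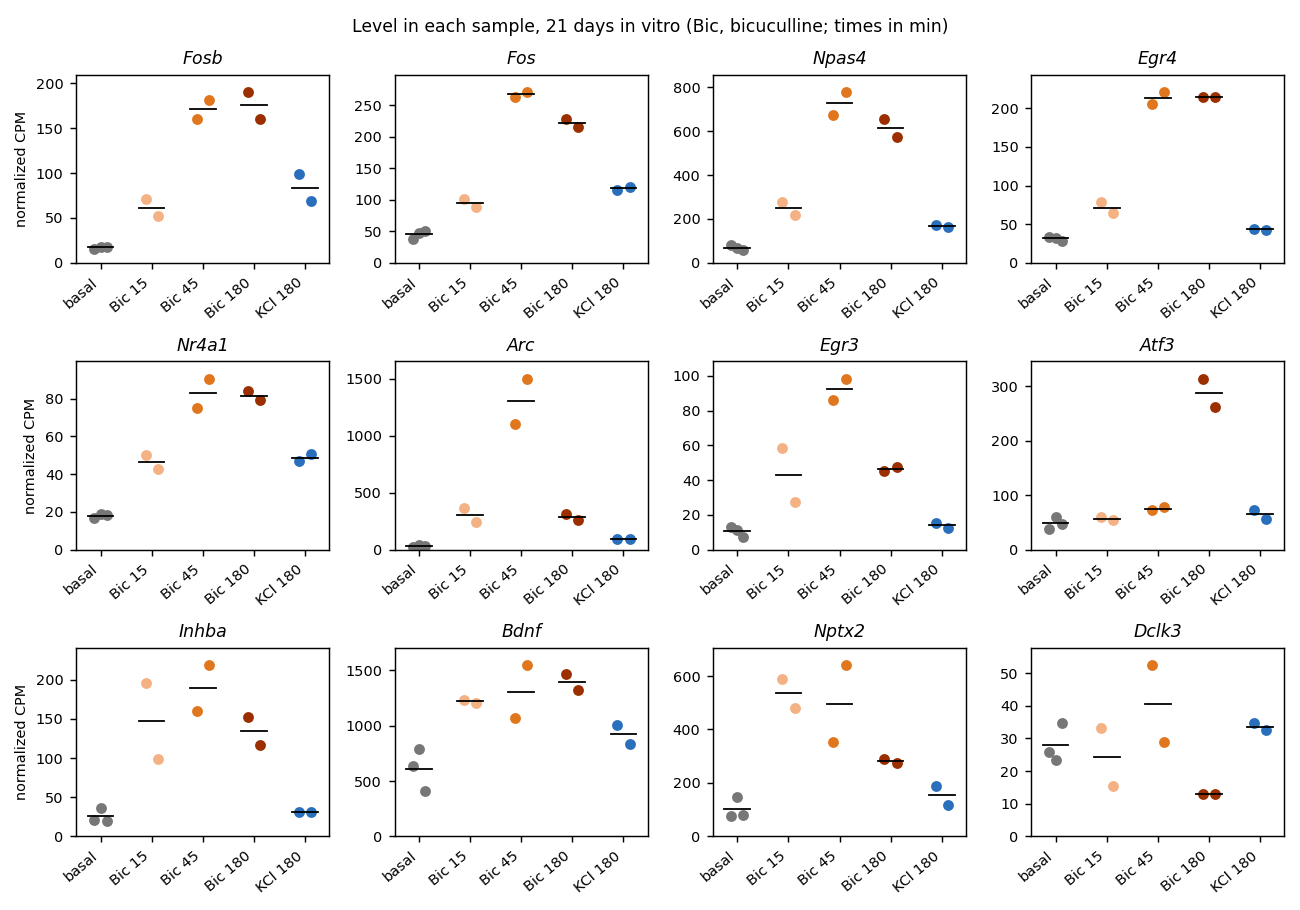
Normalized CPM in each sample (points) and the group mean (line) for 12 genes, in basal cultures (n = 3) and after bicuculline (Bic) for 15, 45 or 180 min or KCl for 180 min (n = 2 each). Fosb, Npas4 and Egr4 stood about as high at 180 as at 45 min, Arc and Egr3 were lower at 180 min, Atf3 was high at 180 min, and Dclk3 was lowest there.

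Activity-regulated synaptic and signalling genes followed, with 12 of 27 tested members (of 30 listed) higher and none lower (median log2 0.59). The count was 6 with sums over transcripts and 7 without bicuculline sample 3. Arc encodes a protein of excitatory synapses that promotes the internalization of AMPA receptors. It measured 25.1, 35.5 and 31.7 CPM in basal samples and 313 and 261 CPM after bicuculline, a 9.38-fold rise (log2 3.23 ± 0.18, adjusted p = 8.8e-17, edgeR). The serine/threonine kinase gene Pim1 was low in every basal sample, at 5.93, 14.8 and 13.4 CPM, and reached 83.2 and 74.2 CPM. Ptgs2, which encodes the prostaglandin synthase COX-2, went from 53.4, 78.8 and 42.5 to 209 and 242 CPM. Gadd45g, of a family of stress sensors linked to DNA demethylation, went from 60.7, 76.2 and 51.5 to 211 and 207 CPM, and its relative Gadd45b rose by a log2 of 1.46 ± 0.28. Sgk1, a kinase gene, had 287, 412 and 294 CPM in basal samples and 883 and 903 CPM after bicuculline. Homer1, a postsynaptic scaffold gene, was not called (177, 192 and 197 CPM in basal, 198 and 201 CPM after bicuculline, log2 0.08 ± 0.14, adjusted p = 0.92, edgeR), as read from the transcript with the most counts. Rem2 was not called despite a log2 of 1.44 ± 0.46 (adjusted p = 0.19, edgeR).

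Among neuropeptides, growth factors and their processing enzymes, 5 of 28 tested members (of 30 listed) rose and none fell (median log2 0.30). Inhba, the subunit that forms activin A, rose most, from 20.6, 36.6 and 19 CPM to 152 and 117 CPM (log2 2.41 ± 0.23, adjusted p = 1.3e-09, edgeR). Bdnf, the neurotrophin that acts on TrkB, was already abundant in basal samples (638, 793 and 406 CPM) and reached 1471 and 1324 CPM. Its basal values spread widely, but the groups did not overlap, and the rise was 2.28-fold (adjusted p = 3.1e-05, edgeR). Nptx2, a secreted pentraxin that gathers AMPA receptors at synapses, went from 77.1, 146 and 79.5 to 289.6 and 276 CPM. Penk, the enkephalin precursor, went from 48.3, 52.9 and 49.3 to 112 and 111 CPM and Pcsk1, a prohormone convertase, from 46.9, 50.7 and 34 to 83.8 and 79.4 CPM. The granin genes Vgf (log2 0.31 ± 0.17) and Scg2 (log2 0.37 ± 0.14) were not called.

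The list of MAPK and cAMP feedback genes, which also holds Creb1 and Crtc1, gave 7 rises among 28 tested members (of 30 listed) and no fall (median log2 0.51). The count was 4 with sums over transcripts, without bicuculline sample 3 or without basal sample 5. Among the rises were DUSP genes, which encode phosphatases of MAP kinases. Dusp4 went from 14.1, 24 and 18.3 CPM to 54.6 and 53.5 CPM, Dusp1 from 39.3, 38.8 and 55.2 to 99.95 and 101 CPM, and Dusp14 from 29.1, 34.8 and 25 to 63 and 60.2 CPM. The Dusp4 call was lost with DESeq2 (adjusted p = 0.13) and with sums over transcripts (adjusted p = 0.21, edgeR). Dusp6 had a log2 change of 0.79 ± 0.17. Nfil3, a bZIP repressor, went from 48, 40.7 and 35.4 to 105 and 108 CPM. Rgs4, which shortens signalling by G proteins, changed by little more than the threshold, from 2514, 2875 and 2044 CPM to 3800 and 3795 CPM (log2 0.62 ± 0.13), and lost its call without basal sample 5 or either bicuculline sample.

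**Figure D3:**
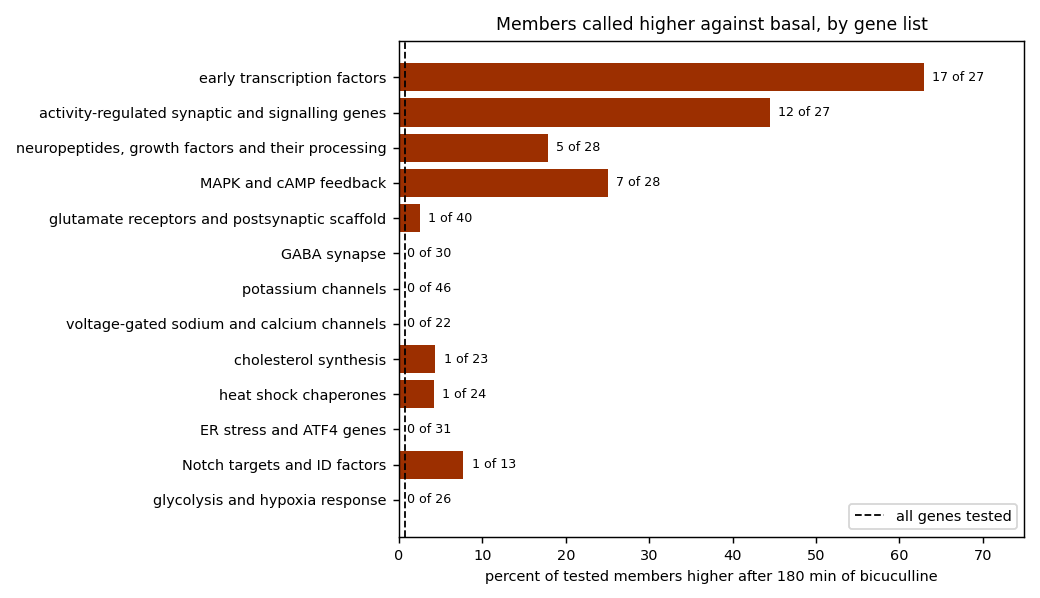
Percent of the tested members of each of 13 gene lists that were called higher after 180 min of bicuculline (bars, with counts), beside the 0.765% of all genes tested (dashed line). Early transcription factors (17 of 27) and activity-regulated genes (12 of 27) stand highest, and 5 lists have no call. The lists were chosen with earlier results of these data known.

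CREB binds the cAMP response element (CRE) in promoters of many early genes. Promoter windows of RefSeq (GRCm38.p6; 250 bases before and 50 after the start) were found for 73 of the 92 genes that rose. The letters TGACGTCA, which read the same on both strands, occurred in a window of 7 of these 73 genes (9.59%), against 3.79% of 9599 tested genes with a window and 2.03% of all 27025. The AP-1 letters TGAGTCA, on either strand, occurred in 4 of the 73 genes that rose (5.48%) and 4.26% of tested genes. The EGR letters GCGTGGGCG, also on either strand, occurred in 3 of the 73 (4.11%) and 1.41% of tested genes. These shares rest on few genes. No match to one of these motifs can contain a match to another, and a match describes letters, not a bound site. The windows of Dusp1, Btg2, Pcsk1 and Arl5b are shown because these listed genes rose and hold the CRE, given in capitals, 5′ to 3′ on the strand of the gene. They lie at chr17:26508423-26508722 (minus strand), chr1:134079106-134079405 (minus), chr13:75089607-75089906 (plus) and chr2:15055070-15055369 (plus).
Dusp1: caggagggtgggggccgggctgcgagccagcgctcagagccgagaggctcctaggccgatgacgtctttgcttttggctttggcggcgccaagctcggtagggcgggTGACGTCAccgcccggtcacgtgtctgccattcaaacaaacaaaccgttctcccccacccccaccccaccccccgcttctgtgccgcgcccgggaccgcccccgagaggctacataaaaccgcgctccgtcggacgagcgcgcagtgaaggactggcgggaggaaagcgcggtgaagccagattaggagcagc
Btg2: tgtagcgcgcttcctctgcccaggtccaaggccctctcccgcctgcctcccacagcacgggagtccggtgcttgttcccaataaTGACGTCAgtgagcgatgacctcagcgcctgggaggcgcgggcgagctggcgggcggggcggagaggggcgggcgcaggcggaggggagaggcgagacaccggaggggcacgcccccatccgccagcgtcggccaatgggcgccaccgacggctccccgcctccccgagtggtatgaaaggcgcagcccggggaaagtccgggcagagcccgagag
Pcsk1: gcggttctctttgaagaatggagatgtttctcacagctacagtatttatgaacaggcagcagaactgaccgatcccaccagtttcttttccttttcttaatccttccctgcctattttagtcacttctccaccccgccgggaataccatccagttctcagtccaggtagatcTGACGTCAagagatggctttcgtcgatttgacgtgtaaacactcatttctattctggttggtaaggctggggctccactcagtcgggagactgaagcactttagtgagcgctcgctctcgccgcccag
Arl5b: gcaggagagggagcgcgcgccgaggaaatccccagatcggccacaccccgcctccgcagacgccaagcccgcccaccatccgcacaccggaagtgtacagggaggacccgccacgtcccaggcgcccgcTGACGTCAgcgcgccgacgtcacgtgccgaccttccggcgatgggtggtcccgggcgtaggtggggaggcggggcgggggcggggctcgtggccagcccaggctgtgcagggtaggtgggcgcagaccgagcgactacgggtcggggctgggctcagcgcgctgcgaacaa
The first base of the element lies 143, 166, 78 and 121 bases before the annotated start. Btg2 went from 27.1, 37.4 and 41.4 CPM in basal samples to 77.3 and 65.9 CPM after bicuculline, and Arl5b from 18.6, 22.2 and 20.5 to 39.1 and 33.2 CPM.

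The lists of GABA synapse, glutamate receptor and scaffold, potassium channel, and sodium and calcium channel genes gave a single call. With 0.823% of all genes called, few calls are to be expected in lists of this size. Of 30 tested genes of the GABA synapse (33 listed, median log2 0.10), none was called by edgeR, its likelihood ratio test or DESeq2. An unadjusted p under 0.05 was found for 4 of them, against 1082 of all 12026 genes. Gad1, which makes GABA, measured 636, 651 and 528 CPM in basal samples and 724 and 673 CPM after bicuculline (log2 0.21 ± 0.13). None of 46 potassium channel genes (54 listed, median log2 0.23) and none of 22 sodium and calcium channel genes (23 listed, median log2 0.14) was called by these 3 tests, with 9 and 2 at an unadjusted p under 0.05. Log2 values were positive for 37 of 46 and 17 of 22, and for 19 of the 30 GABA synapse genes. Among 40 glutamate receptor and scaffold genes (42 listed, median log2 0.09) only Camk2a, a kinase of the postsynaptic density, was called. It measured 152, 209.7 and 153 CPM in basal samples and 697 and 268 CPM in bicuculline samples 2 and 3, so that the size of its change came mainly from sample 2, and the call was lost without it.

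Among the lists of stress, metabolic and Notch genes, heat shock, cholesterol, and Notch and ID each held 1 call. That is 4.17%, 4.35% and 7.69% of their tested members against 0.765% of all genes, each share resting on a single gene. Dnajb1, a co-chaperone of HSP70, rose from 63.8, 66.9 and 79.1 CPM to 159.6 and 149 CPM (log2 1.14 ± 0.14, adjusted p = 3.7e-07, edgeR) and was the sole call among 24 heat shock genes (28 listed, median log2 0.13). Stard4, a sterol carrier, was the only one of 23 cholesterol genes (24 listed, median log2 0.17) to rise (39.8, 67.7 and 38.8 CPM to 112 and 103 CPM). The Stard4 call was lost with DESeq2 (adjusted p = 0.23) and with sums over transcripts (adjusted p = 0.26, edgeR). Id2, an inhibitor of basic helix-loop-helix factors, was the only one of 13 Notch and ID genes (16 listed, median log2 0.02) to rise, from 76.8, 86.9 and 65.3 CPM to 117 and 131 CPM. Both Stard4 and Id2 lost their calls without either bicuculline sample, without basal sample 1 or without basal sample 5. None of 31 ER stress and ATF4 genes (31 listed, median log2 0.13) and none of 26 glycolysis and hypoxia genes (27 listed, median log2 0.21) was called by edgeR, its likelihood ratio test or DESeq2. An unadjusted p under 0.05 was found for 1 and 8 of them, against 1082 of all 12026 genes. Their log2 values were positive for 22 of 31 and 23 of 26, so the glycolysis and hypoxia list leaned upward without a call.

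The 7 falls were modest, between -0.72 and -1.09 on the log2 scale. Dclk3, a doublecortin-like kinase, went from 25.7, 23.3 and 34.7 CPM to 13 and 13 CPM (log2 -1.09 ± 0.26, adjusted p = 0.024, edgeR). Atg14, a subunit of the lipid kinase complex that starts autophagosomes, went from 40.1, 40.3 and 54.8 to 23.6 and 25.1 CPM. Zfp60, Zfp626 and Zfp386 are zinc finger genes, and Zfp60 and Zfp626 lie near each other on chromosome 7. Zfp386 had 174, 134 and 132 CPM in basal samples and 78.2 and 94.8 CPM after bicuculline. Tmem121b (log2 -0.87 ± 0.22) and AW209491 (log2 -0.72 ± 0.16) complete the set. Each of the 7 lost its call when at least 1 of the 5 samples was left out.

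The level at 180 min was next compared with that at 45 min of the same drug, which asks what persists while bicuculline remains. Between the 2 times 368 genes differed (3.06% of those tested), 146 higher (1.21%) and 222 lower (1.85%) at 180 min. All 45 min samples carry the letter B and all 180 min samples the letter A, and the count was 104 with that letter as a term, where only the basal samples hold both letters. The summed astrocyte markers were 5722 and 6372 CPM at 45 min against 3412 and 3787 CPM at 180 min, with 5 of 14 lower (Gfap, log2 -1.38 ± 0.25, and Aqp4, Aldoc, Slc1a2 and Slc1a3). This sum was already 5272 and 4949 CPM in the 15 min samples, which also carry the letter B. It was 3100 and 3423 CPM in basal samples 1 and 2 (letter A) and 2809 CPM in basal sample 5 (letter B). Of the oligodendrocyte lineage markers 3 of 12 were lower at 180 min (summed level 1445 and 1658 CPM at 45 min, 1099 and 1149 CPM at 180 min), as were 2 of 12 neuron markers. Proliferation markers Mki67 (log2 -1.27 ± 0.32) and Top2a were also lower, and the part of these cells in the result was not tested. The count ranged from 55 to 162 when 1 of the 4 samples was left out, with 55 without bicuculline 180 min sample 3. The balance of directions also rested on the 180 min samples, with 32 higher and 23 lower without sample 3 and 63 higher and 65 lower without sample 2.

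Early transcription factors were split by this comparison, with 3 of 27 higher and 4 lower at 180 min. Fosb stood at 161 and 181 CPM at 45 min, a difference of 0.04 ± 0.20 on the log2 scale (adjusted p = 0.95, edgeR). For Npas4 (674 and 781 CPM at 45 min) the difference was -0.24 ± 0.15, for Egr4 (205 and 222 CPM) 0.01 ± 0.17 and for Junb (151 and 173 CPM) 0.01 ± 0.21, none past the test. Arc, by contrast, had 1106 and 1502 CPM at 45 min and was 4.55-fold lower at 180 min (log2 -2.18 ± 0.17, adjusted p = 5.3e-11, edgeR). Gadd45g (582 and 537 CPM at 45 min, log2 -1.42 ± 0.19), Btg2 (log2 -1.40 ± 0.19), Ier2 (log2 -1.06 ± 0.22), Egr3 (log2 -0.99 ± 0.26), Nptx2 (log2 -0.82 ± 0.22) and Dusp1 (log2 -0.72 ± 0.19) were lower too, although all were DEG against basal at 180 min. Atf3 showed the opposite order, with 59 and 53.5 CPM at 15 min and 72.2 and 78 CPM at 45 min (log2 0.66 ± 0.20 against basal, adjusted p = 0.025, edgeR), and was 3.82-fold higher at 180 than at 45 min (adjusted p = 5.4e-08, edgeR). Nr4a3 (log2 0.62 ± 0.14) and Maff (log2 1.53 ± 0.35), a small MAF factor, were also higher at 180 min. Among stress genes, Ddit3, which encodes the factor CHOP, had 20.7 and 33.9 CPM at 45 min and 54.9 and 59.4 CPM at 180 min (log2 1.04 ± 0.24), against 48.9, 50.7 and 68.3 CPM in basal samples, and Hspa1a had 7.05 and 4.24 CPM at 45 min and 21.1 and 11.6 CPM at 180 min (log2 1.55 ± 0.41), against 9.6, 10.4 and 16.8 CPM in basal samples.

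The largest differences from 45 min were in other genes. Ccn1, a matricellular protein gene, measured 65.2 and 55.1 CPM at 45 min and 4.66 and 8.37 CPM at 180 min, against 3.67, 3.7 and 4.85 CPM in basal samples. Krt6a, a keratin gene, had 129.9 and 371 CPM at 45 min and 44.1 and 40.2 CPM at 180 min, still above its basal 10.7, 16.6 and 11.6 CPM, and reads shared with the related Krt6b cannot be told apart by these counts. Bmpr1b, Neat1 and Pxmp2 had the next largest falls, with log2 values between -2.54 and -2.45 and levels of at most 3.72 CPM at 180 min. On the side of the rises, Bbc3, which encodes the cell death protein PUMA, had 8.37 and 3.91 CPM at 45 min and 21.1 and 26.2 CPM at 180 min, against 28.8, 20.3 and 35.4 CPM in basal samples. Car6, Zbed5 and Gm19705 likewise were higher at 180 than at 45 min, with log2 values between 2.23 and 2.51.

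**Figure D4:**
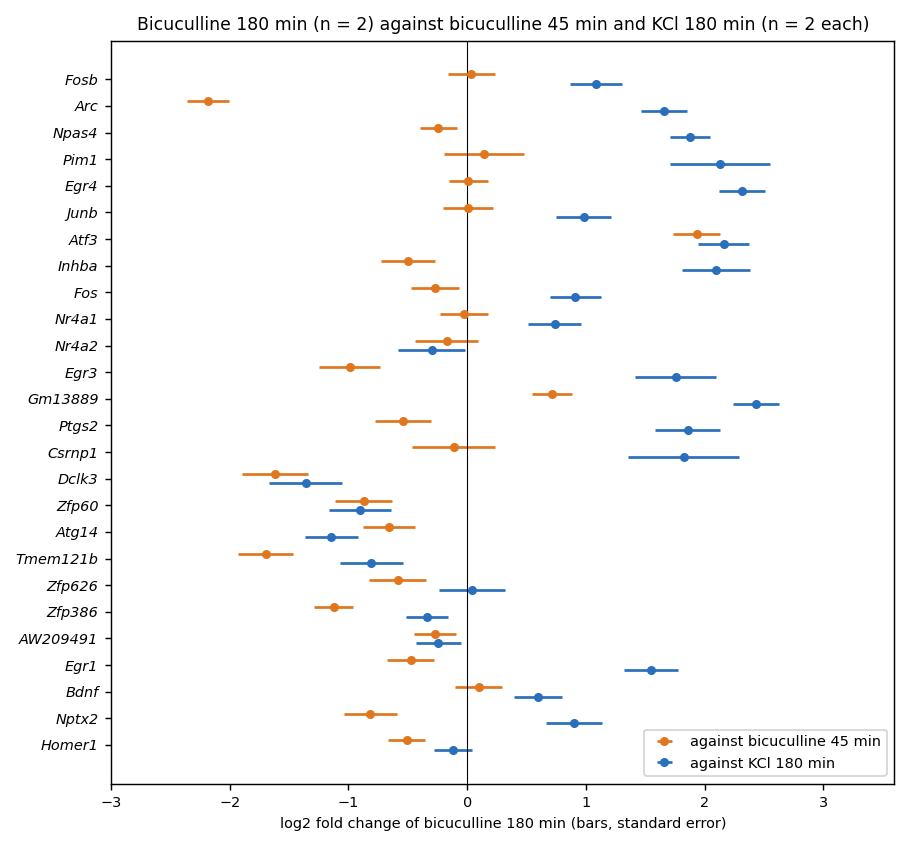
Log2 fold change, with its standard error, of bicuculline 180 min (n = 2) against bicuculline 45 min (orange, n = 2) and against KCl 180 min (blue, n = 2) for 26 named genes. Most early genes lie to the right of 0 against KCl, Nr4a2 lies near 0 in both, and Arc lies at -2.18 against 45 min.

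Bicuculline was finally set against KCl at the same time, 180 min, which asks whether synaptic and direct depolarization leave the same late profile. Here 87 genes differed (0.723%), 55 higher and 32 lower with bicuculline (0.457% and 0.266%). The KCl libraries were the shallower ones, and the count fell to between 20 and 28 when any 1 of the 4 samples was left out (23 without bicuculline sample 2, 26 without sample 3, 20 without KCl sample 1 and 28 without KCl sample 2). The split also turned with the samples fitted, to 95 higher and 143 lower in a fit on these 4 samples alone. In other settings most of the lower calls were lost, with 22 higher and 5 lower for sums over transcripts and 35 higher and 15 lower with the replicate block.

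Early transcription factors were higher with bicuculline in 11 of 27 cases and lower in none. Egr4 had 43.5 and 42.8 CPM after KCl, 4.98-fold below bicuculline (log2 2.32 ± 0.20, adjusted p = 1.8e-10, edgeR). Atf3 had 73.3 and 56.5 CPM after KCl (log2 2.16 ± 0.21, adjusted p = 8.2e-09, edgeR), and Npas4 171 and 164 CPM (log2 1.88 ± 0.17, adjusted p = 4.6e-10, edgeR). Egr3 (log2 1.76 ± 0.34) and Egr1 (log2 1.55 ± 0.23) were also higher with bicuculline, as were the AP-1 genes Fosb (log2 1.08 ± 0.22), Junb (log2 0.98 ± 0.23) and Fos (log2 0.91 ± 0.22). Of activity-regulated synaptic and signalling genes 6 of 27 were higher and none lower. Arc (log2 1.66 ± 0.19), Inhba (log2 2.10 ± 0.28), Ptgs2 (log2 1.86 ± 0.27) and Pim1 (log2 2.13 ± 0.42) were higher with bicuculline as well. Nr4a2 was not called between the stimuli, at 42.7 and 43.4 CPM after KCl (log2 -0.30 ± 0.28), nor were Gadd45g (195 and 186 CPM, log2 0.13 ± 0.20) and Bdnf (1010 and 838 CPM, log2 0.60 ± 0.20).

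Some genes, such as Hes5 and Mylip, differed between the stimuli while their level with bicuculline lay near basal. Hes5, a Notch target of progenitors, measured 2.42 and 6.28 CPM after KCl against 23.6 and 21.9 CPM after bicuculline and 22.3, 19.97 and 24.3 CPM in basal samples (log2 2.28 ± 0.35, adjusted p = 0.00011, edgeR). Sox10 (log2 1.65 ± 0.19) and Olig2 (log2 0.97 ± 0.20) of the oligodendrocyte lineage were also higher with bicuculline, and the summed oligodendrocyte markers were 667 and 689 CPM after KCl, 1099 and 1149 CPM after bicuculline and 830.2 to 1287 CPM in basal samples. Their part in the result was not tested. Gm13889 (54 and 67.3 CPM after KCl, 324 and 339 CPM after bicuculline) and Gm40346 (1.61 and 1.14 CPM after KCl, 10.2 and 14.6 CPM after bicuculline) had the largest log2 values of the named genes in this comparison. Unlike Hes5, Gm13889 also rose against basal with bicuculline (log2 2.05, adjusted p = 1.9e-12, edgeR). Mylip, a ubiquitin ligase that acts on the LDL receptor, was lower with bicuculline (10.2 and 13.5 CPM) than with KCl (45.1 and 39.9 CPM) and at 10.2, 10.7 and 12.7 CPM in basal samples. Gm41127, Casp8ap2, Prdm16 and Tent4b were lower with bicuculline too, with log2 values between -1.80 and -1.47. Of the chaperones, Hspa1b was lower with bicuculline (log2 -1.26 ± 0.24), and reads shared with its near-identical copy Hspa1a cannot be told apart.

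With 4-aminopyridine added, in the maturation experiment, the age label, the control samples and the normalization all differed, so values are given side by side without a test. Within that experiment both treated samples carry the letter E in their description code, and the basal samples C or D. The letter therefore cannot be told apart from the drugs there. Against its own basal samples, bicuculline with 4-aminopyridine for 180 min gave a log2 change of 5.00 ± 0.57 for Atf3, 4.33 ± 0.31 for Fos, 4.31 ± 0.35 for Npas4 and 4.28 ± 0.40 for Fosb, where bicuculline alone gave 2.59, 2.31, 3.17 and 3.38. For Arc the values were 2.10 ± 0.35 with 4-aminopyridine and 3.23 without, and for Egr3 -0.70 ± 0.38 (not called) and 2.12. Of the falls, Dclk3 had -1.54 ± 0.38 and Tmem121b -2.32 ± 0.28 in that experiment, and Zfp60 -0.21 ± 0.29 without passing the test.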

How the data were processed

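The members and gene lists were chosen with earlier results of these data known. The authors made CEL-Seq2 3′ libraries, aligned them to mm10 with STAR, used the End Sequence Analysis Toolkit (ESAT) for counting per RefSeq transcript, and deposited the raw counts without normalization; whether molecular identifiers were collapsed is not stated in the sources used here. Transcripts were matched to RefSeq genes of GRCm38.p6 (80.9% of 96722; the unmatched held 19.2% of counts and were left out), and the transcript with the most counts represented its gene. Genes that exceeded 5 CPM in 2 or more samples entered TMM normalization and were tested with edgeR 4.0.16 (R 4.3.3) in 1 fit of all 27 samples of the stimuli experiment, with group as the only term. Standard errors came from the F statistic. The maturation experiment was fitted separately. Counts simulated for bicuculline 180 min against basal, over 12026 genes, gave calls for 66.7% of genes changed by a log2 of 1 and 91.9% of those changed by 2 (99 genes each), and also for 15 unchanged genes.

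Named genes were the 15 largest rises and 10 largest falls among DEG (5 and 5 in the other comparisons) with a mean log2 CPM of 3 or more and groups that did not overlap, up to 5 DEG per list by adjusted p, and 12 genes given in any case. Not every gene that this rule selects is reported here. Other members of the 13 gene lists and 6 marker lists are given as examples. Alternatives were edgeR's likelihood ratio test, DESeq2 1.42.0, RLE size factors, other filters, other sets of samples, sums over transcripts, terms for replicate number and description letter, thinning, and leaving out each sample. Figures used Python 3.11.15 with matplotlib 3.10.9.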

Additional observations from a re-analysis of the deposited data

Results flagged for a closer look

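Among the genes named for 180 min of bicuculline against basal, 11 differed between 180 and 45 min of the drug by edgeR's quasi-likelihood test of the difference itself. Arc was lower at 180 min (log2 -2.18 ± 0.17), as was Egr3 (log2 -0.99 ± 0.26), although both stood above basal at each time. Atf3 was higher at 180 min by log2 1.93 ± 0.20 and Gm13889 by log2 0.71 ± 0.17. Of the genes named through their lists, Gadd45g (log2 -1.42 ± 0.19), Nptx2 (log2 -0.82 ± 0.22) and Dusp1 (log2 -0.72 ± 0.19) were lower at 180 min. Of the falls, Tmem121b differed by log2 -1.70 ± 0.23, Dclk3 by log2 -1.62 ± 0.28, Zfp386 by log2 -1.12 ± 0.17 and Zfp60 by log2 -0.87 ± 0.24. The 45 and 180 min samples also differ in the letter of their description code, which cannot be told apart from the time within these 4 samples.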

How the results depend on the processing

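For bicuculline 180 min against basal, the 99 DEG became 55 with counts summed over transcripts and between 65 and 106 when 1 sample was left out; the other alternatives stayed within 1.5 times, such as 88 with DESeq2 and 96 with RLE size factors. The genes named for this comparison kept their direction in 656 of 656 recomputed values, and 75 of these lost the threshold, mostly the falls, Rgs4, Stard4 and Id2. The DEG among them had groups that did not overlap, and the recomputations reuse the same samples, so the kept direction says little. For bicuculline against KCl, the 87 DEG became 146 with the likelihood ratio test, 138 without a filter, 238 with the compared groups only, 157 with samples never in TTX, 27 with sums over transcripts (22 higher, 5 lower) and 50 with the replicate block, and between 20 and 28 without 1 sample. For 180 against 45 min, the 368 DEG became 568 with the likelihood ratio test, 627 with the compared groups only, 585 with samples never in TTX, 135 with sums over transcripts, 104 with the description letter as a term and 178 after thinning to the smallest library, and between 55 and 162 without 1 sample. The cause was not tested. Whether replicate numbers pair the samples could not be told. Deviations of same-numbered samples had a median correlation of 0.0075 (96 pairs) against -0.0029 for other pairs. Basal and bicuculline 180 min share only the number 2 (correlation 0.036). Most groups hold 2 samples, so these values do not exclude pairing. The replicate numbers are those of the sample titles, and the description of basal sample 5 gives it the number 2 instead. The replicate block, which by the title's number takes up basal sample 5, gave 70 DEG against basal and 313 against 45 min, with 7 rises among activity-regulated and 2 among MAPK and cAMP feedback genes.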

Other observations

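Several further genes rose after 180 min of bicuculline that belong to none of the lists above; they were chosen after their values were seen. Among secreted and matrix proteins, the growth factor gene Bmp2 went from 16.1, 12.9 and 16.4 CPM to 53.7 and 44 CPM, and Smad7, an inhibitor of signalling by TGF-β family receptors, from 3.11, 6.66 and 3.36 to 15.8 and 12.4 CPM (log2 1.70 ± 0.37, adjusted p = 0.0075, edgeR). The metalloproteinase gene Adamts1 changed by log2 1.36 ± 0.21. Receptor genes in the set included Sstr2, a somatostatin receptor (log2 1.05 ± 0.25), and Adrb1, a β-adrenergic receptor (log2 0.89 ± 0.16). Bcl2l11, which encodes the cell death protein BIM, went from 21.8, 17.8 and 21.3 CPM to 47.2 and 41 CPM and stood at 14.5 and 19.9 CPM at 45 min (180 against 45 min, log2 1.34 ± 0.27, adjusted p = 0.0033, edgeR).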
